A study of Mus musculus with 4 samples.

Results

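The genes described here encode the proteins that neutrophils store in their granules, followed in mouse MLL-AF9 leukaemic cells treated with OHT or EtOH. They were taken by symbol: Mpo, Elane, Prtn3, Ctsg and Ms4a3 as genes of the primary granule stage, Ltf, Camp, Ngp and Lcn2 as secondary granule genes, and Lyz2, whose product is stored in all granule types. All 10 were measured, each on 1 RefSeq transcript, among 16545 symbols and 18061 transcripts. The cells carried the MLL-AF9 fusion on a C57BL/6 background, were isolated from the bone marrow of mice and were cultured in liquid medium. Both groups shared the genotype Ring1a-/-, Ring1bf/f and Cdkn2a-/-, so the controls lacked Ring1a and Cdkn2a as well. One group of 2 samples received EtOH and the other group of 2 samples received OHT, each for 72 h. The titles of the OHT samples carry the word RingKO, and those of the EtOH samples do not. OHT is in common usage hydroxytamoxifen, the ligand that activates the recombinases used to delete floxed alleles; the recombinase of these cells is not given in the sources used here, nor is it stated if replicates were separate mice or cultures. The p-values therefore rest on differences between these 4 samples alone, and those may be technical. The question in the series title is whether the Polycomb complex PRC1, whose ubiquitin ligases are RING1A and RING1B, maintains the identity of leukaemic cells.

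Neutrophils make their granules in sequence as they mature. Primary (azurophil) granules form at the promyelocyte stage and hold myeloperoxidase and the serine proteases that digest microbes, while secondary (specific) granules form later, at the myelocyte and metamyelocyte stage, and hold lactoferrin, cathelicidin and lipocalin. C/EBP factors, PU.1, RUNX1, MYB and GFI1 are known regulators of these genes, and the order in which the genes come on is used to stage granulocytic maturation. MLL-AF9 leukaemic cells resemble granulocyte and monocyte progenitors, and genes of both classes were measured in them.

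The promoters of 6 genes are shown because 4 of them carry shared letters of known regulators and the other two, Mpo and Lyz2, are the genes with the widest spread between libraries and with the change that passed the test. Each is the stretch of 200 bases before the annotated start, 5′ to 3′ along the gene, from RefSeq on build GRCm38.p6, which is later than the mm9 build named in the submitters' processing notes. The stretches are chr10:79886112-79886311, plus strand for Elane, chr10:79879467-79879666, plus strand for Prtn3, chr9:111019092-111019291, plus strand for Ltf, chr9:110419608-110419807, plus strand for Ngp, chr11:87793584-87793783, plus strand for Mpo and chr10:117282273-117282472, minus strand for Lyz2. Capitals mark matches, on either strand, to the PU.1 letters GAGGAA and to the C/EBP letters TTNNGNAA, in which N is any base. All 10 genes were found in the promoter table, with 1 start each.
Elane: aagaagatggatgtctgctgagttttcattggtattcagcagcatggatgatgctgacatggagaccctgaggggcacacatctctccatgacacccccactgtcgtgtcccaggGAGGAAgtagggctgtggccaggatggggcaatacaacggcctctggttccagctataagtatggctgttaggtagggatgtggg
Prtn3: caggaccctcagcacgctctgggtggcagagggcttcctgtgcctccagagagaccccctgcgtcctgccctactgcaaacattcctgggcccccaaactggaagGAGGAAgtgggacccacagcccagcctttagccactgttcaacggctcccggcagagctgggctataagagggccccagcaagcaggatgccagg
Ltf: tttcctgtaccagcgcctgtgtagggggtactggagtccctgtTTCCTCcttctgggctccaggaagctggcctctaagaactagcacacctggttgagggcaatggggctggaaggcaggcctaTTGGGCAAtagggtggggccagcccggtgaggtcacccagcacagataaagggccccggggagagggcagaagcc
Ngp: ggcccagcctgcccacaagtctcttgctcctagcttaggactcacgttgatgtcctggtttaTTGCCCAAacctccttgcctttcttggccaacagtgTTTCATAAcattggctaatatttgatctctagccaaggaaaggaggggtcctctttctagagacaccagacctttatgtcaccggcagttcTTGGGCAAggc
Mpo: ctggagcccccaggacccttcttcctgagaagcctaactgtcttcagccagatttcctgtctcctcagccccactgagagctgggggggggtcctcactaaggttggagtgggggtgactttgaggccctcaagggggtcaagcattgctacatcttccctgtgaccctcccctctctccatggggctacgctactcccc
Lyz2: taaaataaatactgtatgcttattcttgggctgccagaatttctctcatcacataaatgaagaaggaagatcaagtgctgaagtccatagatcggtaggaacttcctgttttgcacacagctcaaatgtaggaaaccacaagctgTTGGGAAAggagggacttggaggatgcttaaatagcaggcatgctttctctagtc

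Elane and Prtn3, which are neighbours on chromosome 10, each held 1 GAGGAA, beginning 85 and 95 bases before their starts. Ltf and Ngp both held TTGGGCAA, at 75 and 11 bases before the start, and Ngp held 2 further C/EBP matches. The annotated start of Ltf matched the first 50 bases of its GENCODE transcript. Those of Elane, Prtn3 and Ngp matched 0, so their distances depend on the annotation used. No match to either motif lay in the windows of Mpo, Ctsg or Camp, and the single match of Lyz2 was to the C/EBP letters. Of the 10 windows, 4 held GAGGAA (Elane, Prtn3, Ltf and Lcn2), against 19.0% of all 32843 promoter windows of that length. TTNNGNAA was held by 4 (Ms4a3, Ltf, Ngp and Lyz2), against 30.0%. TGTGGT, the RUNX core, was found in 2 windows (Ctsg and Lyz2) against 11.2%, CAACTG for MYB in 1 (Ctsg) against 8.96%, and AAATCA for GFI1 in 0 against 9.79%; both strands were searched, and no motif match is a measured site.

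The file holds 1 mean per group, and each mean was solved for the whole reads of 2 libraries, called A and B within their group. Which letter belongs to which labelled replicate is unknown. Solved totals ran from 3841243 to 6255320 reads. Pearson's r of log2 normalised counts across 8723 transcripts was 0.954 for the EtOH pair, 0.965 for the OHT pair and from 0.810 to 0.888 for pairs of unlike treatment, taken across transcripts, which are not replicates. Rnf2, which encodes RING1B, has 636 with EtOH and 757 with OHT in the table the authors deposited, with an adjusted p of 1. Reads from exons outside a deleted part would still be counted, so this does not check the labels. Values below are normalised counts as the authors scaled them, with 1 read added to each library and division by its size factor. Limma-voom fold changes are on the log2 scale, OHT over EtOH, with Benjamini-Hochberg adjustment over the 11338 transcripts fitted.

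Lyz2 was the 1 gene of the 10 called in the authors' deposited table: it was higher with OHT, and none of the 10 was called lower. Over all transcripts that table calls 5.48% at an adjusted p under 0.05, 3.62% higher and 1.85% lower. Limma-voom on the solved reads also called Lyz2 higher and none of the others, where it calls 15.2% of transcripts, 9.72% higher and 5.49% lower; 2 of the 10, Lyz2 and Ctsg, had an unadjusted p under 0.05. With 10 genes, 1 call is near these shares, and a gene without a call is not shown to be unchanged. None of the 5 primary and 4 secondary granule genes was called by either method, and for 8 of these 9 the libraries of the groups overlapped, Ctsg being the exception. The groups overlapped for 8845 of all 18061 transcripts, and for 3017 of the 7894 with a mean of at least 50 in both groups. The median deposited log2 fold change was -0.28 over the 5 primary genes and 0.10 over the 4 secondary genes, beside 0.04 over all transcripts. It was -0.14 over the transcripts with a mean of at least 50 in both groups, a level that all 10 genes reached. In bulk RNA, fewer cells of a type and less RNA per cell cannot be told apart.

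Lyz2 encodes lysozyme M, the enzyme that cleaves bacterial cell walls, and is made by monocytes and macrophages as well as by neutrophils. Its normalised counts were 510.0 and 589 in EtOH libraries A and B and 1233 and 1419 in OHT libraries A and B. Both OHT libraries lay above both EtOH libraries, and the libraries within a group differed little. The authors' deposited table gives means of 549 and 1326, a 2.41-fold rise (adjusted p = 0.000505). The limma-voom log2 fold change was 1.28 ± 0.21 (SE, adjusted p = 0.00501), and it stayed between 1.17 and 1.38 when any 1 library was left out. Lyz1, the neighbouring lysozyme gene, is a close copy: 15.4% of the 50-base windows of the Lyz2 transcript occur unchanged in Lyz1, so reads of the pair may have been split or lost. Lyz1 was not called in the authors' deposited table (adjusted p = 0.286) and was called higher by limma-voom (1.12 ± 0.32 SE, adjusted p = 0.0415), a call that ended both when EtOH library A was omitted (0.93, adjusted p = 0.0943) and when OHT library B was (0.75, adjusted p = 0.274).

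**Figure D1:**
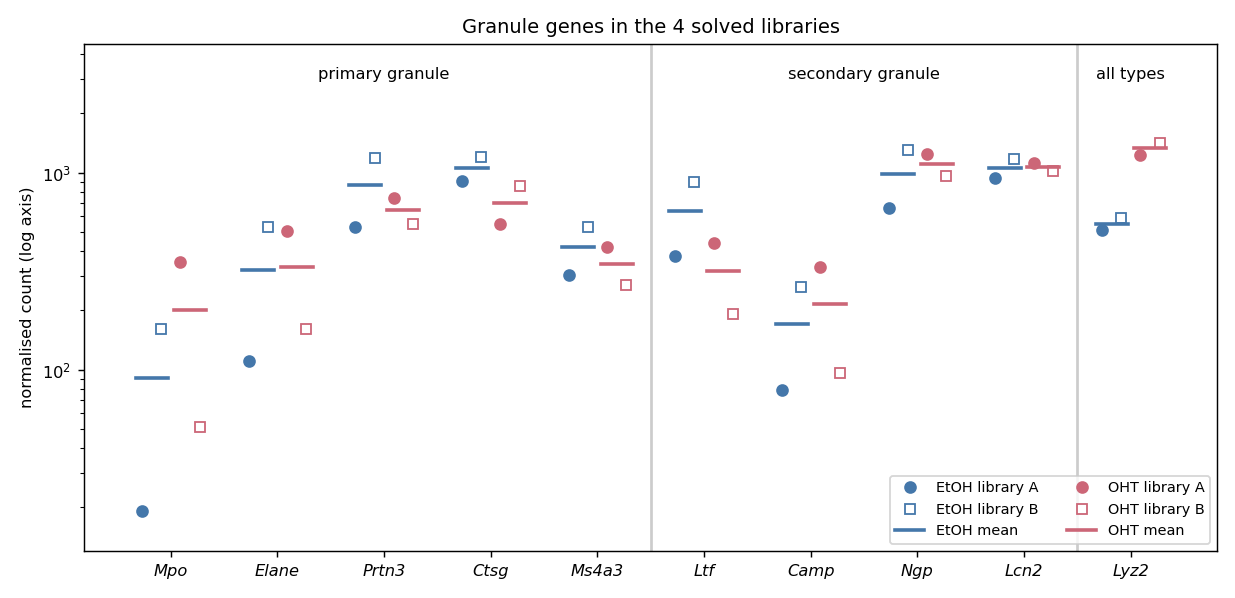
Normalised counts (log axis) of the 10 granule genes in the 4 solved libraries; circles are libraries A, open squares libraries B, blue EtOH, red OHT, and bars the group means. For 8 genes the groups overlap, as they do for 3017 of the 7894 transcripts with a mean of at least 50 in both groups. Both OHT libraries of Lyz2 (1233 and 1419) lie above both EtOH libraries (510.0 and 589).

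Among the primary granule genes, Mpo varied the most. Mpo encodes myeloperoxidase, the haem enzyme that makes hypochlorous acid, and it had 19.1 and 161 normalised counts in EtOH libraries A and B and 352 and 51.4 in OHT libraries A and B. Each group thus held 1 high and 1 low library, and the groups overlapped. Its group means of 90.3 and 202 differ 2.23-fold in the authors' deposited table, where the adjusted p is 1, and the limma-voom log2 fold change of 1.59 had a 95% interval from -0.62 to 3.80 (adjusted p = 0.309). Without OHT library B the limma-voom value of Mpo was 2.84, and without EtOH library A it was -0.13. Neutrophil elastase (Elane) had the same higher library within each group, with 111 and 529 in EtOH and 505 and 161 in OHT, but its highest value was in EtOH library B where that of Mpo was in OHT library A. The 2 low libraries lay close together, as did the 2 high ones, 1 of each from each treatment. The limma-voom value of Elane was 0.41 (95% interval -1.05 to 1.87), with -0.83 without EtOH library A, -0.50 without OHT library A, and 1.16 with a call (adjusted p = 0.0414) without OHT library B.

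Proteinase 3 (Prtn3), the serine protease encoded beside Elane, had 532 and 1190 in EtOH libraries A and B and 741 and 551 in OHT libraries A and B. The 2 OHT values lay inside the EtOH range. Its limma-voom log2 fold change was -0.29 (95% interval -1.05 to 0.47). Without EtOH library A it was -0.90, and without EtOH library B 0.27. Ms4a3 encodes a membrane-spanning protein that marks granulocyte and monocyte progenitors and is not itself a granule enzyme. It had 304 and 531 in EtOH and 418 and 270.2 in OHT, overlapping, with a limma-voom value of -0.21 (95% interval -0.91 to 0.50). Cathepsin G (Ctsg), the third serine protease, was the exception in its order: 906 and 1202 in EtOH libraries A and B, and 551 and 856 in OHT libraries A and B. Both OHT libraries lay below both EtOH libraries, which was so, in either direction, for 51.0% of all transcripts and for 61.8% of those with a mean of at least 50 in both groups. The authors' deposited table lists 1054 with EtOH and 704 with OHT, without a call (adjusted p = 0.525), nor was the limma-voom value of -0.61 ± 0.26 (SE, adjusted p = 0.140).

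The secondary granule genes showed the same mixture. Lactoferrin (Ltf), the iron-binding protein of specific granules, had 377 and 900 in EtOH libraries A and B and 440.1 and 192 in OHT libraries A and B. Its OHT mean was 2.02-fold lower, the largest difference of the 4, but the groups overlapped and the deposited adjusted p was 0.991 in the authors' deposited table. The limma-voom log2 fold change of -0.93 (95% interval -1.92 to 0.06, adjusted p = 0.182) became a call without EtOH library A (-1.59, adjusted p = 0.0101), without OHT library A (-1.57, adjusted p = 0.00871), and with no filter on low reads (-0.92, adjusted p = 0.0379). Camp encodes the cathelicidin antimicrobial peptide, and its counts were 78.8 and 263 in EtOH and 333 and 96.0 in OHT. The higher library within each group was the same as for Mpo and Elane, and the highest value was in OHT library A, as for Mpo. The limma-voom value of Camp was 0.49 (95% interval -0.88 to 1.86). It was 1.30 without OHT library B but -0.47 without EtOH library A.

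Ngp, neutrophilic granule protein of the cystatin fold, had 662 and 1302 in EtOH libraries A and B and 1244 and 961 in OHT libraries A and B. The OHT values lay within the EtOH range, and the limma-voom value was 0.25 (95% interval -0.42 to 0.92). Lipocalin 2 (Lcn2), which binds bacterial siderophores and is also induced in other cells, was the steadiest member, with 935 and 1174 in EtOH and 1125 and 1020 in OHT. Its limma-voom log2 fold change of 0.04 had a 95% interval from -0.43 to 0.50, so of the 9 genes without a call it is the one whose difference is bounded most closely.

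**Figure D2:**
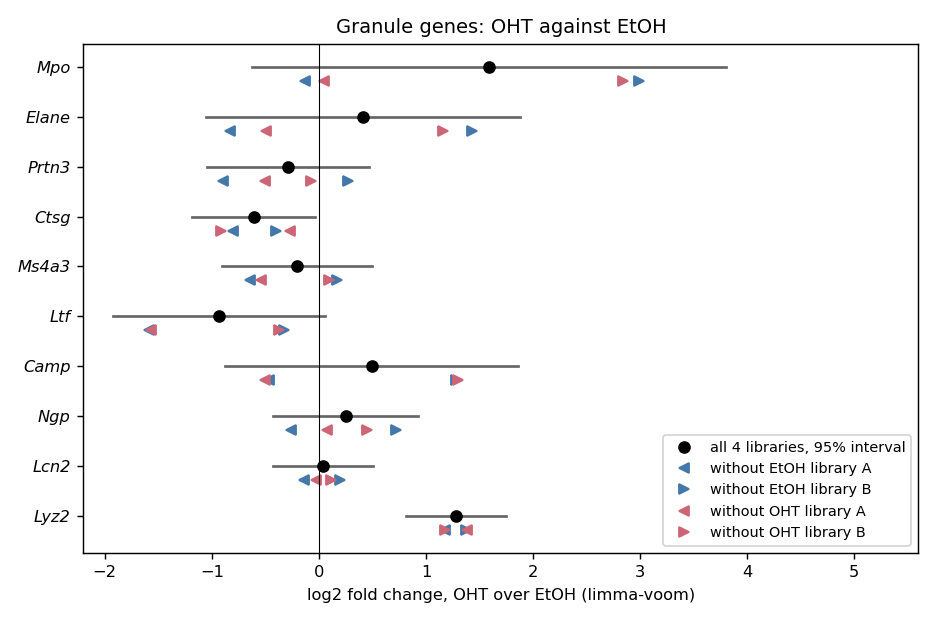
Limma-voom log2 fold changes, OHT over EtOH, of the 10 genes (black points, with 95% intervals) and the values with 1 library left out (triangles). The interval of Lyz2 (0.81 to 1.74) lies above 0 and its omissions run from 1.17 to 1.38, whereas the omissions of Mpo run from -0.13 to 2.99 and those of Camp from -0.50 to 1.30.

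The spread between libraries had one direction across most of the genes. EtOH library B was above EtOH library A for 10 of 10 genes, and OHT library A above OHT library B for 8 of 10, the exceptions being Ctsg and Lyz2. Among the 7894 transcripts with a mean of at least 50 in both groups, 43.4% had EtOH library B above A, 41.5% had OHT library A above B, and 16.8% had both. The sizes ranged widely among the members: EtOH library B was 8.47-fold above A for Mpo, 4.76-fold for Elane, 3.34-fold for Camp and 2.38-fold for Ltf, and 1.26-fold for Lcn2. In OHT, library A was 6.85-fold above B for Mpo, 3.46-fold for Camp, 3.14-fold for Elane and 2.29-fold for Ltf, and 1.10-fold for Lcn2. The median transcript at that level differed 1.24-fold between the EtOH libraries and 1.15-fold between the OHT libraries.

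Only 50 of the 7894 transcripts (0.633%) differed at least 2-fold between libraries in both groups, and 4 of the 10 members were among them: Mpo, Elane, Camp and Ltf, from both granule classes. With EtOH library B and OHT library A as the higher ones there were 11 such transcripts (0.139%); the other 7, chosen after their values were seen, were Siglece, Itgb2l, Ptges, Grik5, Myo18b, Dnah17 and the unnamed 9230105E05Rik. By size of the difference, Mpo ranked 2 of 7894 within each group. The read ratio of Mpo, the higher library over the lower and scaled by size factors, was 8.78 in EtOH (exact 95% interval 5.55 to 14.5) and 6.99 in OHT (5.13 to 9.73), intervals that cover counting error only. The members were not chosen for this spread, but the pattern was noticed in these data, and which labelled replicates it separates cannot be read from the file.

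**Figure D3:**
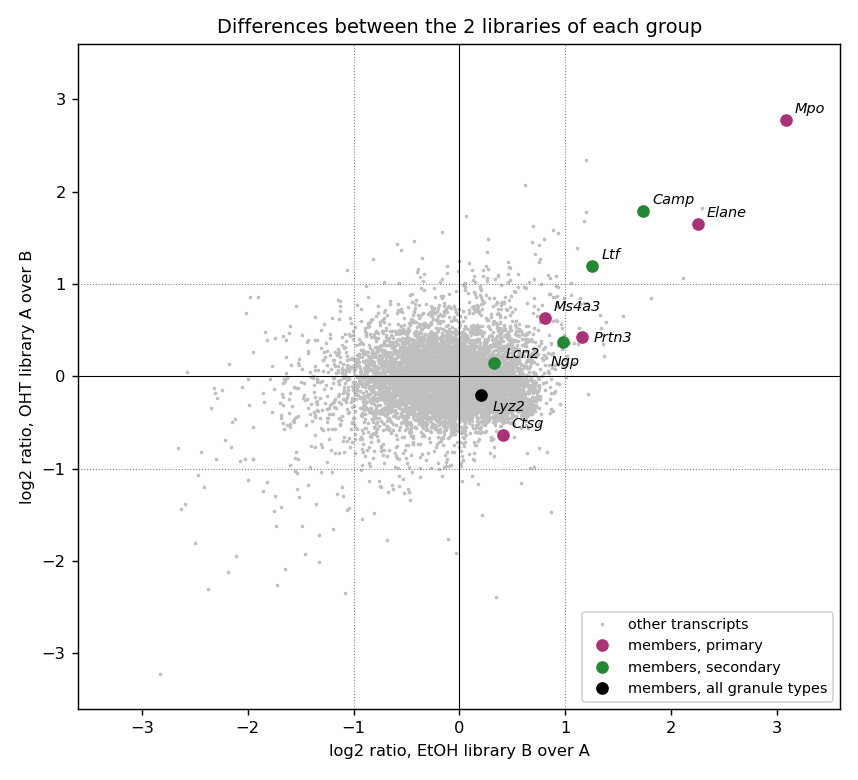
Differences between the 2 libraries of each group: log2 ratio of EtOH library B over A (x axis) and of OHT library A over B (y axis) for 7894 transcripts (grey) and the 10 granule genes (coloured by class), with dotted lines at 2-fold. Mpo, Elane, Camp and Ltf lie beyond 2-fold on both axes, and Lcn2 and Lyz2 lie near the origin.

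Set against each other, the classes ran in parallel from library to library. The geometric mean of the 5 primary genes was 199 and 579 normalised counts in EtOH libraries A and B and 497 and 254 in OHT libraries A and B. That of the 4 secondary genes was 368 and 776 in EtOH and 673 and 367 in OHT. Both classes were therefore high in the same library of each group. The secondary geometric mean divided by the primary one was 1.85 and 1.34 in EtOH and 1.35 and 1.44 in OHT, so the OHT ratios lay inside the EtOH range. With summed counts, in which the abundant genes weigh more, the ratio was 1.10 and 1.01 in EtOH and 1.22 and 1.20 in OHT, and there the groups did not overlap; with 2 libraries a group this ratio has no test here. The limma-voom medians of -0.21 (primary) and 0.14 (secondary) moved to -0.81 and -0.36 without EtOH library A, to 0.27 and 0.46 without EtOH library B, to -0.50 and -0.27 without OHT library A, and to 0.09 and 0.28 without OHT library B.

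Levels between genes were compared per kilobase of transcript, with GENCODE lengths of the matching models. On this scale Lcn2 led with EtOH at 1152 normalised counts per kilobase, followed by Ctsg at 1052, Prtn3 at 840 and Ngp at 804. Lyz2 and Ms4a3 were close at 417 and 413, Elane stood at 325, Ltf at 233 and Camp at 225, and Mpo was lowest at 32.8. With OHT the order was Lcn2 (1172), Lyz2 (1008), Ngp (902), Ctsg (702), Prtn3 (630.4), Ms4a3 (341), Elane (338), Camp (283), Ltf (115) and Mpo (73.3). The library ranges of neighbours in these orders overlapped, except between Ngp and Lyz2 and between Camp and Mpo with EtOH, and between Lcn2 and Lyz2 and between Prtn3 and Ms4a3 with OHT. Mpo was thus the lowest per kilobase in both groups.

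Other genes of the granules were read from companion lists. In the authors' deposited table, 2 of 18 further primary granule and promyelocyte genes rose and 0 fell: Mgst1, a microsomal glutathione transferase, 1.98-fold (means 357 and 706) and Igsf6, an immunoglobulin-superfamily membrane protein, 2.06-fold (600.5 and 1238). The share over all transcripts was 3.62% higher and 1.85% lower. The median log2 fold change of the 18 was 0.04. With OHT library A left out, limma-voom called neither Mgst1 (0.99, adjusted p = 0.0891) nor Igsf6 (0.82, adjusted p = 0.165). Among 20 further secondary granule genes, the authors' deposited table calls 2 higher and 0 lower, beside 3.62% and 1.85% of all transcripts, with a median of 0.92 and 18 positive values. These were the collagenase Mmp8, 1.92-fold (1840 and 3541), and Wfdc21 (listed as 1100001G20Rik), a whey acidic protein family member, 2.84-fold (105 and 300). Limma-voom called 6 of the 20 higher, 3 without OHT library A, beside 9.72% of all transcripts with all libraries; Mmp8 lost its call when EtOH library B (0.74, adjusted p = 0.0664) was omitted, and likewise for OHT library B (0.81, adjusted p = 0.0590). The positive median of these genes stood beside 0.10 for the 4 secondary members, a difference that was not tested.

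Genes of tertiary granules and of late neutrophils came next. In the authors' deposited table, 5 of 19 measured rose and 0 fell, beside 3.62% higher and 1.85% lower over all transcripts, with a median of 0.92, and Ly6g was not analysed here. Slc11a1, a metal transporter of phagosomes, had 375 and 154 in EtOH libraries A and B and 1314 and 1159 in OHT libraries A and B, a 4.68-fold rise in the authors' deposited table (adjusted p = 7.4e-10). The authors' deposited table also gives a 2.79-fold rise for the chemokine receptor Cxcr2 (624 and 1743) and a 1.90-fold rise for gelatinase B, Mmp9 (2317 and 4398). Mmp9 libraries lay close, at 2385 and 2250.0 in EtOH and 4372 and 4424 in OHT, a smaller spread than that of Mpo, Elane, Camp or Ltf. For the cytokine Il1b the authors' deposited table gives a 4.24-fold rise, from 59.2 to 251 (adjusted p = 0.0107). The list did not rise as a whole: 15 log2 fold changes were positive and 4 negative. The negative ones, named after their values were seen and not called, were Stfa1 (-0.33), Padi4 (-0.20), Slpi (-0.08) and Stfa2 (-0.07). Limma-voom called 8 of the 19 higher with all libraries, where it called 9.72% of all transcripts higher, and 6 to 9 with 1 left out.

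Of 14 measured regulators of granule genes, 1 fell and 2 rose by the p-values of the authors' deposited table, beside 1.85% lower and 3.62% higher over all transcripts; Runx1 and Lef1 were not analysed here. Gfi1, a repressor required for neutrophil development, fell 4.44-fold from 58.9 to 13.3, and limma-voom gave -2.25 ± 0.53 (SE), with no call without OHT library B (-1.76, adjusted p = 0.0854). Irf8, which favours monocytes over granulocytes, rose 4.19-fold (215 to 902) and the monocyte factor Klf4 4.93-fold (12.3 to 60.7) in the authors' deposited table. The C/EBP and PU.1 genes, named after their values were seen, were not called: Cebpa was listed at 1097 and 1206, Cebpe at 1079 and 895 and Spi1 at 1353 and 1460 in the authors' deposited table. Cebpe, the factor known for switching on secondary granule genes, had 964 and 1195 in EtOH and 858 and 932 in OHT, without the spread of Camp or Ltf.

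**Figure D4:**
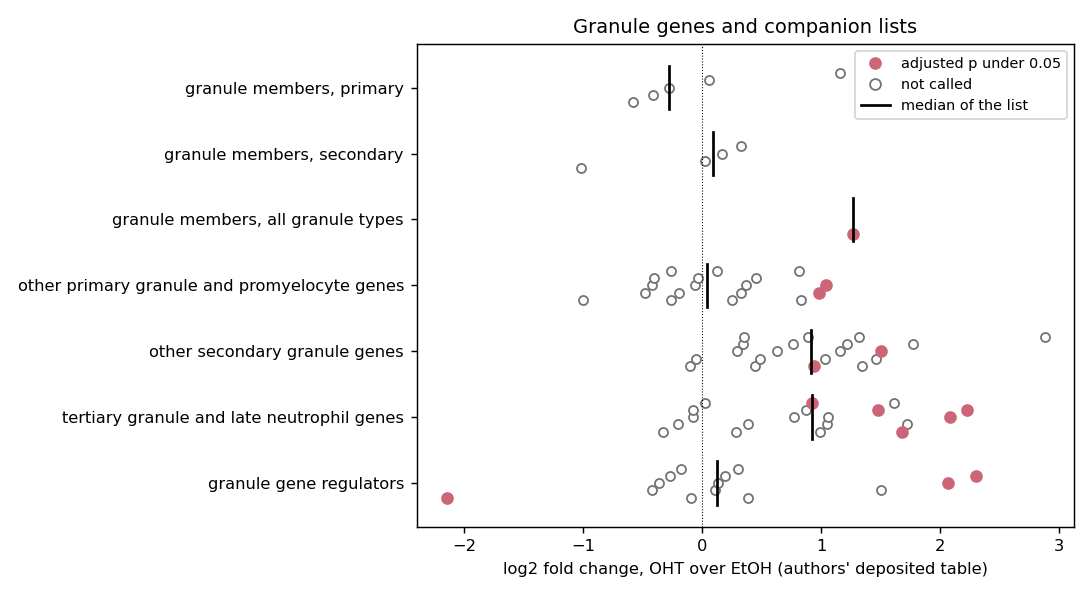
Log2 fold changes, OHT over EtOH, in the authors' deposited table for the granule genes and 4 companion lists; filled points passed an adjusted p of 0.05, open points did not, and bars are list medians. Medians were 0.92 for both the other secondary and the tertiary and late neutrophil lists, against -0.28 and 0.10 for the primary and secondary members.

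Markers of other cell types also differed between libraries. The summed normalised reads of 13 measured monocyte and macrophage markers were 4866 and 2111 in EtOH libraries A and B and 7630 and 8352 in OHT libraries A and B; 4 of the 13, the complement genes C1qa, C1qb and C1qc among them, rose and 0 fell by the deposited p-values of the authors, and all 13 had positive log2 fold changes. Over all transcripts 3.62% were called higher and 1.85% lower, and 9332 of 18061 had positive log2 fold changes. The C1q genes had at most 3 reads in either EtOH library. In EtOH the monocyte and macrophage sum was thus lower in the library where all 10 granule genes were higher, and it was higher in OHT, as Lyz2 was. The 8 basophil and mast cell markers summed to 2091 and 1922 in EtOH and to 1562 and 3668 in OHT. The sum was highest in OHT library B, where Mpo, Elane and Camp were low, but OHT library A lay below both EtOH libraries. Cpa3 held most of the sum, with 1944 and 1814 in EtOH and 1306 and 2563 in OHT. Its log2 fold change was 0.04 in the authors' deposited table and -0.04 by limma-voom, without a call. All 8 had positive deposited log2 fold changes and none was called in the authors' deposited table. Mcpt4 and Fcer1a had at most 4 reads in any library, so their signs rest on few reads. Limma-voom called 1 of the 8 higher, the mast cell and basophil protease Prss34, named after its values were seen (4.47 ± 1.15 SE, adjusted p = 0.0281), at 9.95 and 6.51 in EtOH and 78.9 and 420 in OHT. The 7 eosinophil markers summed to 1213 and 2059 in EtOH and to 800 and 857 in OHT, and the 3 most abundant (Prg2, Epx and Prg3) were higher in EtOH library B, as the granule genes were, while the other 4 had at most 23 reads in any library. None of the 7 was called in the authors' deposited table. Limma-voom called Epx, eosinophil peroxidase, lower (-1.60 ± 0.36 SE, adjusted p = 0.0176), where it called 5.49% of all transcripts lower. T and NK cell markers summed to at most 3.91 and B cell markers to 60.5 to 191, of which Cd79b held most. The erythroid and megakaryocyte markers measured summed to 1695 to 3961, highest in OHT library B, and 2 of 6 rose in the authors' deposited table (Epor and Pf4), beside 3.62% of all transcripts. The part of these differences in the granule gene values was not tested.

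The transcripts whose pattern over the 4 libraries was most like the secondary granule genes were Plekhn1, Hpgd, Ptp4a1, 4933439C10Rik and Nlrp1a, at distances of 0.08 to 0.27 on the centred log2 scale. Plekhn1 had 101 and 201 in EtOH and 183 and 102 in OHT, and Hpgd, which inactivates prostaglandins, 628 and 1187 and then 1028 and 564. For the primary genes they were Plekhn1, Klf2, Ptp4a1, Nlrp1a and Hpgd, at 0.42 to 0.51. Distances of the primary members themselves to their mean pattern ran from 0.60 (Prtn3) to 2.07 (Mpo), so these likenesses are to a mean that its own members follow loosely. The likeness is over 4 libraries that share size factors, and is a description.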

How the data were processed

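Per the labels' protocols, RNA came from an RNeasy extraction, and sequencing libraries from a TruSeq RNA kit (version 2), which does not mark strand. TopHat, DESeq and the build mm9 are listed in the submitters' processing notes, without roles; the read counter is not given in the sources used here. The signal columns are, per the file headers, the authors' base means, 1 per group; the deposited ratio is the OHT mean over the EtOH mean, the deposited log2 column its log2, and the deposited p-values are a p per transcript and its Benjamini-Hochberg adjustment over the table (to within 2.63e-06).

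Each mean was solved for whole reads of 2 libraries plus 1 read each, with 1 solution for 100% of transcripts; of means moved by up to 0.1%, 0.138% (EtOH) and 0.177% (OHT) still solved. Size factors were 1.206 and 0.768 (EtOH A and B) and 1.191 and 0.896 (OHT A and B). A call is an adjusted p below 0.05 as the authors deposited it; limma-voom (limma 3.58.1, R 4.3.3) used transcripts with at least 10 reads in 2 libraries and 2 residual degrees of freedom, and was tested on simulated data. Columns of other samples numbered 0. Members, lists and tests were chosen with earlier results of these data known. All members are named; of each list, up to 6 called genes by adjusted p, or the 2 most abundant where none was called, and the 5 transcripts nearest each class mean among those with a mean of at least 100. Of the genes this rule names, 2 are not reported here. Each symbol stands for its most abundant transcript.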

Additional observations from a re-analysis of the deposited data

How the results depend on the processing

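Lyz2 was called higher under every limma-voom setting with all 4 libraries: other scalings, no filter and limma-trend. In the authors' deposited table it was called at adjusted p thresholds of 0.01 and 0.1 and with 1 transcript per symbol, with 0 other granule genes called at any of these. At 0.01 the table held 432 higher and 163 lower calls over all transcripts, against 654 and 335. Limma-voom called 1102 transcripts higher and 623 lower, and 795 to 1597 higher and 133 to 1075 lower with 1 library left out (1075 without EtOH library A, 133 without OHT library A, 372 without OHT library B). It called 1 granule gene higher and 0 lower, 1 lower (Ltf) with no filter on low reads, and 1 to 4 higher and 0 to 2 lower with 1 library left out: 4 higher without OHT library B, 2 lower without EtOH library A and 1 lower without OHT library A. Omissions gave log2 fold changes of -0.13 to 2.99 for Mpo, -0.83 to 1.43 for Elane, -0.90 to 0.27 for Prtn3, -0.64 to 0.17 for Ms4a3, -0.50 to 1.30 for Camp, -0.26 to 0.72 for Ngp and -0.14 to 0.20 for Lcn2, all of which changed sign, and of -0.91 to -0.27 for Ctsg, -1.59 to -0.33 for Ltf and 1.17 to 1.38 for Lyz2, which did not. An omission leaves 1 group with a lone library, assumed to vary like the others. Without OHT library B the SE of Mpo was 0.48, against 0.995 with all 4 libraries, although its EtOH libraries still differed 8.47-fold. A call made or lost with 1 library left out is therefore no measure of a gene's own spread. Leaving libraries out of the companion lists was chosen after seeing the data. The cause of the dependence on single libraries was not tested. No paired analysis was possible because the solved libraries carry no replicate numbers.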
